A study of Mus musculus with 60 samples.

Results

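The 34 genes described here mark macrophages and monocytes, the phagocytes of the myeloid lineage. They were chosen by name, as the rows of the count table whose mouse symbol was 1 of 34 listed symbols. This list and the other gene lists used below were drawn up with earlier results of these data known. All 34 were found among the 27179 genes of the table, and all 34 passed the filter on low counts, which kept 18057 genes for testing. By role they fell into 12 genes of resident macrophages (complement subunits and receptors), 5 scavenger and uptake receptors, 8 genes of monocytes and 9 genes shared by most myeloid cells.

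Monocytes leave the bone marrow and enter the gut wall through the chemokine receptor Ccr2, carrying the surface protein Ly6C. There they mature in steps into resident macrophages, which lose Ly6C, gain F4/80 (Adgre1) and Cx3cr1, and depend on the growth factor receptor Csf1r. Resident macrophages take up bacteria and dying cells in the mucosa, and others sit between the nerves and the smooth muscle of the outer wall. Several of these markers are shared with other cells: Lyve1 with lymphatic endothelium, Ly6C with plasma cells and endothelium, and Spi1, Laptm5 and Pld4 with B cells.

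RNA was sequenced from a 5 mm section of whole mid-colon from each of 60 male DBA/1 mice, a strain that develops arthritis when immunised against collagen. In the 30 mice with collagen-induced arthritis (CIA), bovine type II collagen in Complete Freund's adjuvant was injected at an age of 9 to 10 weeks, and collagen in saline was given again on day 21, both at ZT6. Colon was taken 7 days after symptoms appeared, or at matched times from 30 co-housed naïve mice, for which the same age of 9 to 10 weeks is listed. Each treatment had 5 mice per time point, every 4 h from ZT0 (lights on) through ZT12 (lights off) to ZT20. No injection is named for naïve mice, so arthritis and the injections cannot be told apart.

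Library totals ranged from 31382664 to 57564488 counts in CIA and from 25840240 to 61425974 counts in naïve mice. No library was a copy of another. The section holds every layer of the wall, and its makeup differed between treatments: 26 of 26 smooth muscle genes were higher in CIA mice (median log2 fold change 0.65), and the smooth muscle score, which is the mean log2 CPM (counts per 1000000 counts) of these genes, was 9.17 ± 0.390 in CIA and 8.50 ± 0.434 in naïve mice (mean ± SD, n = 30 per treatment). For Acta2, the actin of smooth muscle, CIA mice had 3151 ± 794 CPM and naïve mice 1989 ± 531. Of the other cell types, 10 of 12 plasma cell, 6 of 12 T cell, 5 of 10 dendritic cell, 1 of 9 eosinophil and mast cell, 1 of 11 endothelial, 0 of 10 B cell and 0 of 7 lymphatic genes were lower in CIA mice and none of these higher, against 20.4% lower and 17.6% higher across all genes tested. Of 17 epithelial genes 4 were lower and 2 higher, of 6 neutrophil genes 2 were lower and 1 higher, and of 10 fibroblast genes 0 were lower and 1 higher. Naïve replicate 5 at ZT4 and naïve replicate 3 at ZT12 had interferon gene means of 7.90 and 7.70 log2 CPM (highest of the others 5.67), naïve replicate 5 at ZT0 and CIA replicate 2 at ZT12 had skeletal muscle gene means of 4.28 and 5.997 log2 CPM (others 1.24 at most), and the clock genes of naïve replicate 4 at ZT4 lay 2.03 log2 units from their group mean (others 1.08 at most). CIA replicate 4 at ZT4, paired with it in a later check, lay 0.97 units away and was not the next highest.

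Macrophage and monocyte transcripts were lower in the colon of CIA mice. Pooling all time points, 26 of the 34 genes were lower, 0 were higher and 8 did not pass (edgeR quasi-likelihood F test, threshold of 0.05 on adjusted p). Across all genes tested the shares were 20.4% lower and 17.6% higher. Since the 34 genes were chosen with earlier results known, the contrast with these shares is a description only. The median log2 fold change of CIA over naïve was -0.43 for the 34 genes, with a range of -1.28 to 0.077, against -0.025 for all 18057 genes. In whole tissue, fewer cells of a type, less RNA per cell and a larger share of other tissue in the section cannot be told apart. By flow cytometry of the colonic lamina propria, the paper saw unchanged proportions of myeloid cells. That assay covered ZT8 and ZT20 only, with fewer mice than the fit pooled here. The paper also reported comparable immune cell subsets inferred with xCell, from the same RNA data as used here. In its histology, inflammatory foci and villi thickness did not differ between treatments. Proportions among isolated cells are not amounts in the whole section. Leaving out any 1 library gave between 24 and 27 lower genes and 0 higher. For these runs the share of all genes is not at hand. Leaving out the interferon, skeletal muscle or clock pair of libraries gave 24, 25 and 26 lower, against 19.9%, 19.8% and 21.5% of all genes.

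**Figure D1:**
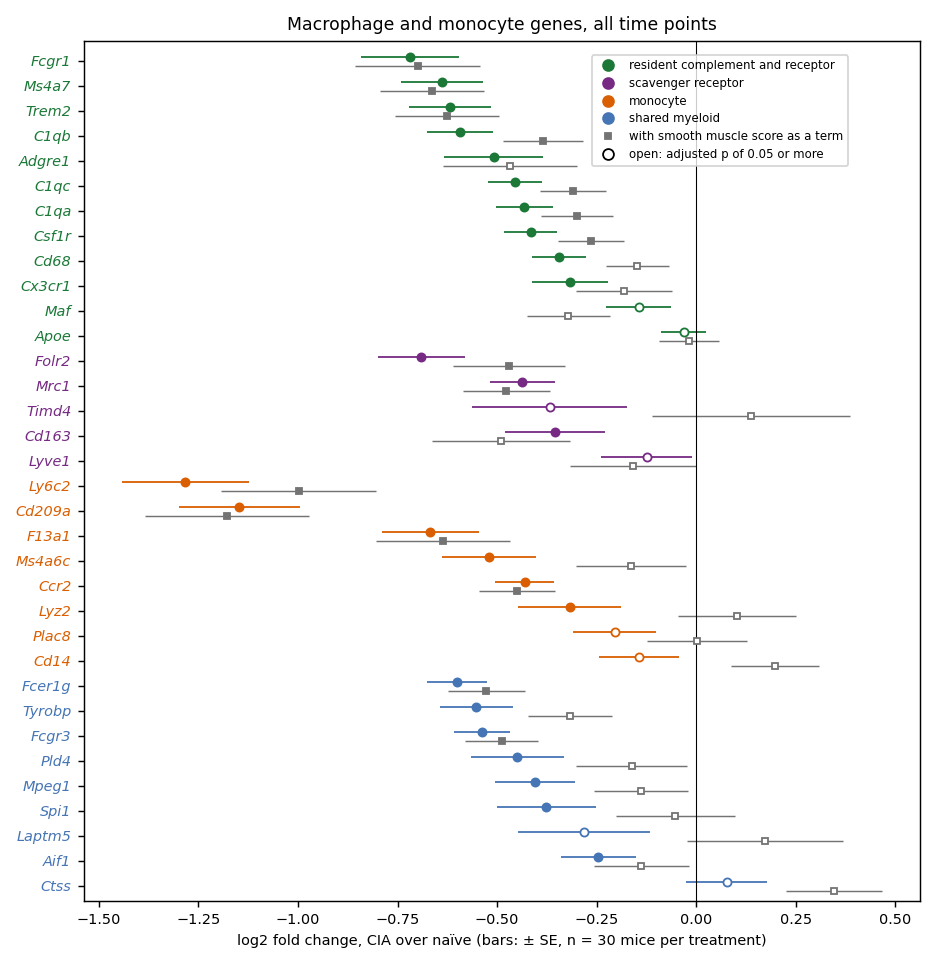
Log2 fold change of CIA over naïve mice for each of the 34 genes, with SE bars, pooled over time points (30 mice per treatment). Circles are coloured by group, grey squares come from the fit with the smooth muscle score as a term, and open symbols did not pass. Ly6c2 and Cd209a lie farthest to the left, and Lyz2, Cd14 and Laptm5 cross 0 once the score is in the fit.

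The complement component C1q, which tags dying cells and immune complexes for uptake, is made in the gut mostly by resident macrophages. Its 3 chains are encoded by neighbouring genes on chromosome 4 (GRCm38): C1qb (gene 12260) from 136880126 to 136886200, C1qc (gene 12262) from 136889801 to 136892936 and C1qa (gene 12259) from 136895916 to 136898844. C1qb ranged from 3.68 to 10.4 CPM in CIA mice (median 6.95) and from 7.18 to 16.1 CPM in naïve mice (median 10.6). The groups overlapped, yet 30 of 30 CIA mice lay below the naïve median. The log2 fold change of C1qb was -0.59 (SE 0.082, edgeR adjusted p = 2.3e-07), lower at 6 of 6 time points. C1qa stood at 34.3 ± 6.99 CPM (CIA) and 46.2 ± 9.03 CPM (naïve), and C1qc at 30.98 ± 5.58 and 42.5 ± 7.96 CPM. Their log2 fold changes were -0.43 and -0.46, so all 3 chains fell together.

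Csf1r, the receptor for the growth factor CSF1 that keeps macrophages alive, ranged from 19.2 to 39.3 CPM in CIA mice (median 28.3) and from 23.9 to 57.3 CPM in naïve mice (median 37.02). Its log2 fold change was -0.42 (SE 0.067, edgeR adjusted p = 3.3e-06). Fcgr1, the high-affinity IgG receptor CD64 that separates macrophages from dendritic cells, was the resident gene with the largest difference. CIA mice had 1.09 ± 0.356 CPM and naïve mice 1.79 ± 0.608 CPM, with a log2 fold change of -0.72 (SE 0.12). Ms4a7, a membrane protein of tissue macrophages, had a log2 fold change of -0.64, and Trem2, a lipid-sensing receptor, one of -0.62. For Ms4a7, 30 of 30 naïve mice lay above the CIA median.

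Adgre1 (F4/80), Cd68, a lysosomal membrane protein, and Cx3cr1, the fractalkine receptor, were lower too, with log2 fold changes of -0.51, -0.34 and -0.32, though Cx3cr1 did not pass when ZT8 was left out. The remaining pair of resident genes did not pass. Maf, a transcription factor of macrophages that T cells also use, had a log2 fold change of -0.14 (edgeR adjusted p = 0.16). Apoe, which carries lipids and is made by many cell types, had 308.1 ± 44.2 CPM (CIA) and 314.9 ± 50.8 CPM (naïve), with a log2 fold change of -0.032. Thus 10 of the 12 resident genes were lower.

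Of the 5 scavenger and uptake receptors 3 were lower. Folr2, a folate receptor of perivascular and muscularis macrophages, ranged from 1.55 to 5.37 CPM in CIA mice (median 3.34) and from 2.70 to 12.1 CPM in naïve mice (median 4.89). Its log2 fold change was -0.69 (SE 0.11, edgeR adjusted p = 2.8e-06), and 29 of 30 CIA mice lay below the naïve median. Mrc1, the mannose receptor CD206, had a log2 fold change of -0.44. Cd163, which takes up haemoglobin bound to haptoglobin, had one of -0.36 (SE 0.13, edgeR adjusted p = 0.021). The call for Cd163 ended when ZT0, ZT4 or ZT16 was left out.

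Lyve1, a hyaluronan receptor, had 16.8 ± 5.12 CPM (CIA) and 18.4 ± 5.73 CPM (naïve) and did not pass (log2 fold change -0.12, SE 0.11). Timd4, which binds phosphatidylserine on dying cells, did not pass either (-0.37, SE 0.19). It was among the lowest of the 34 genes, with as few as 9 counts in a library.

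The genes listed under monocytes held the largest and some of the smallest differences. Ly6c2, which encodes the Ly6C of inflammatory monocytes (gene 100041546, chromosome 15, 75108161 to 75112066), ranged from 2.00 to 11.9 CPM in CIA mice (median 6.36) and from 4.06 to 32.2 CPM in naïve mice (median 15.7). Here 30 of 30 CIA mice lay below the naïve median, and 22 of 30 naïve mice lay above the highest CIA mouse. The level was 2.43 times higher in naïve mice (log2 fold change -1.28, SE 0.16, edgeR adjusted p = 3.9e-08). Reads of Ly6c2 may be shared with its near copy Ly6c1, an endothelial gene, which had 24.03 ± 4.97 CPM (CIA) and 26.7 ± 4.88 CPM (naïve) and did not pass (-0.15, adjusted p = 0.083). Plasma cells carry Ly6C too. From mouse to mouse Ly6c2 had r = 0.77 with the plasma cell gene Jchain and 0.30 with Ccr2, as described below. Which cells its difference came from was not tested.

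Cd209a (DC-SIGN), a lectin of monocyte-derived cells, ranged from 0.379 to 1.46 CPM in CIA mice (median 0.795) and from 0.643 to 3.82 CPM in naïve mice (median 1.80). It was 2.22 times higher in naïve mice (log2 fold change -1.15, SE 0.15), and again 30 of 30 CIA mice lay below the naïve median. Ccr2, the receptor by which monocytes leave the marrow, fell less, from 9.35 ± 2.13 CPM in naïve to 6.94 ± 1.13 CPM in CIA mice (-0.43, SE 0.075). Its spread was also narrower in CIA mice, and 30 of 30 of them lay below the naïve median.

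F13a1, the A chain of coagulation factor XIII, had a log2 fold change of -0.67, and Ms4a6c, a membrane protein of monocytes, one of -0.52. Lyz2, the lysozyme of phagocytes, had one of -0.32 (SE 0.13) and sat at the threshold: its adjusted p was 0.047, and 31 of the 60 runs without 1 library lost the call, with log2 fold changes between -0.32 and -0.26. The call of Lyz2 also ended with upper quartile scaling (-0.30), with no filter on low counts (-0.31), without ZT0, ZT8, ZT12 or ZT20 (-0.34 to -0.26) and without the interferon (-0.30) or skeletal muscle (-0.32) pair of libraries. Plac8, which colonic epithelium also expresses, had 642.9 ± 189 CPM in CIA and 741.1 ± 207 in naïve mice. Neither Plac8 (-0.20) nor Cd14, the co-receptor for lipopolysaccharide (-0.14), passed, which left 6 of 8 monocyte genes lower. Plac8 passed as lower without CIA replicate 5 at ZT16 (-0.25), without ZT16 (-0.29) and with time point as a term (-0.22).

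Among the genes shared by myeloid cells, the signalling adaptors moved most. Fcer1g, the Fc receptor gamma chain, ranged from 4.32 to 8.98 CPM in CIA mice (median 6.19) and from 6.47 to 15.4 CPM in naïve mice (median 9.34). All 30 CIA mice lay below the naïve median and all 30 naïve mice above the CIA median, with a log2 fold change of -0.60 (SE 0.076, edgeR adjusted p = 5.6e-08). Tyrobp (DAP12), the adaptor of Trem2 among others, had a log2 fold change of -0.55, and Fcgr3, a low-affinity IgG receptor that signals through Fcer1g, one of -0.54.

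Pld4, an endolysosomal exonuclease, Mpeg1, a pore-forming protein of phagosomes, and Spi1, the transcription factor PU.1, had log2 fold changes of -0.45, -0.40 and -0.38, and Spi1 did not pass when ZT8 was left out. Aif1 (Iba1), an actin-binding protein, was lower by a small margin (-0.25, adjusted p = 0.035) and in the same direction at 4 of 6 time points. Its call was lost without CIA replicate 2 at ZT0 or at ZT8, naïve replicate 2, 3, 4 or 5 at ZT4, or naïve replicate 5 at ZT20, with values between -0.23 and -0.21. It was also lost without ZT0 (-0.26), ZT4 (-0.15), ZT8 (-0.21) or ZT12 (-0.24) and without the interferon pair of libraries (-0.21). Laptm5, a lysosomal protein of blood cells, did not pass (-0.28, SE 0.17). Ctss, the protease cathepsin S, had 357.3 ± 97.6 CPM (CIA) and 338.7 ± 94.98 CPM (naïve) and was the 1 gene of the 34 with a fitted value above 0 (0.077, adjusted p = 0.57).

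Spi1 encodes PU.1, the transcription factor that opens many macrophage genes, so the promoters of the 34 genes were searched for its sequence GAGGAAGT on both strands. RefSeq promoter windows of 300 bases (GRCm38.p6, 250 bases before to 50 after a start site) were at hand for 26 of the genes. These genes had 34 windows, since a gene can have several start sites. The letters were in 6 of the 34 windows, of 5 genes (C1qc, Ctss, F13a1, Ly6c2 and Pld4), and in 3.2% of 32851 windows of all genes. The ETS-IRF composite was in 3 of the 34 windows (0.731% of all windows), the AP-1 sequence TGANTCA in 4 (7.81%) and the C/EBP sequence TTNCNNAA in 22 (40.7%). Stretches of 60 bases from C1qc (chr4:136893076-136893135, minus strand) and Ly6c2 (chr15:75112046-75112105, minus strand) are shown as a resident and a monocyte gene, with the match in capitals, which for C1qc reads on the opposite strand. A match is only a match of letters.
C1qc: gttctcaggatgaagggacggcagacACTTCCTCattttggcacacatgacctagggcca
Ly6c2: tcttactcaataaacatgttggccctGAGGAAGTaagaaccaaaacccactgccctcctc

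Per kilobase of exon (GENCODE vM21), the levels of the 34 genes spanned a wide range. In naïve mice Plac8 was highest at 465.5 CPM per kb, followed by Ctss at 249.4, Lyz2 at 204.0, Apoe at 147.3 and Cd14 at 59.8. At the other end stood Timd4 at 0.705, Fcgr1 at 0.691 and Trem2 at 0.566 CPM per kb. Of the 5 genes with the highest levels, only Lyz2 passed, and it did so at the threshold. Plac8 and Apoe are also made by other cells, and the cells that gave these transcripts were not determined.

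Because CIA sections held more smooth muscle transcript, each gene was also read against the smooth muscle score among mice of the same treatment and time. Of the 34 genes 16 fell as the score rose and 1 rose (edgeR, 12 groups in the fit), against 24.5% falling and 19.2% rising across all genes. The steepest falls were those of Timd4 (-0.81 log2 units per unit of score, SE 0.25), Laptm5 (-0.73), Lyz2 (-0.62) and Cd14 (-0.51). Maf was the gene that rose (0.26, SE 0.086). Ccr2 (0.0064, SE 0.084), Trem2 (-0.012, SE 0.12), Ms4a7 (0.015, SE 0.11), Fcgr1 (-0.015, SE 0.14) and Lyve1 (-0.0088, SE 0.15) had slopes well inside their error. By group, 6 of 9 shared myeloid, 4 of 8 monocyte, 5 of 12 resident and 1 of 5 scavenger genes fell. Genes of other cell types moved with the score too. Those of B cells (10 of 10, median -2.33), T cells (11 of 12, median -1.03) and plasma cells (7 of 12, median -0.45) fell, while 7 of 10 fibroblast genes rose. The score thus also tracked the lymphoid content of the section, and the part of each in the slopes was not tested.

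**Figure D2:**
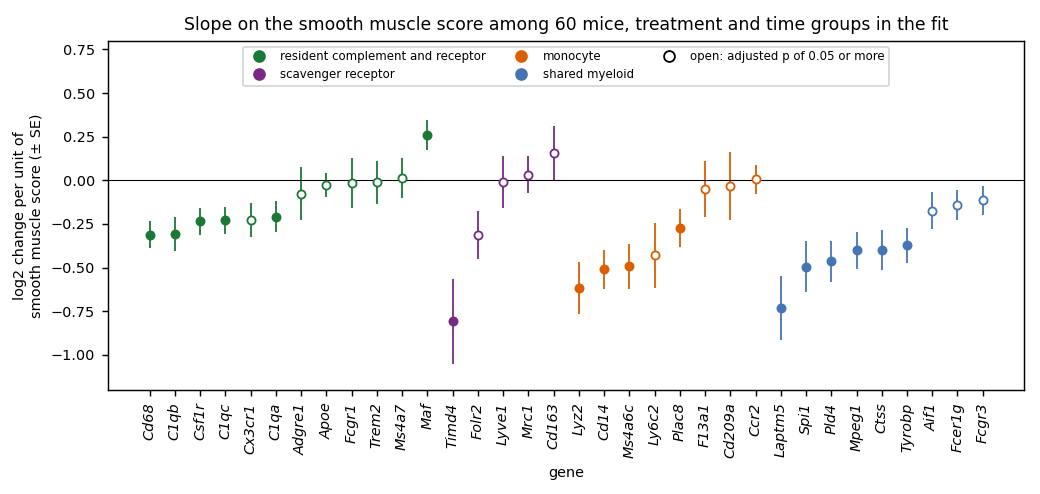
Log2 change in level per unit of smooth muscle score (± SE) for each gene among 60 mice, with the 12 treatment and time groups in the fit. Open circles did not pass. The shared myeloid genes lie between -0.73 and -0.11, all below 0, while Ccr2, Trem2, Ms4a7, Fcgr1 and Lyve1 lie at about 0.

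With the smooth muscle score as a term in the treatment fit, 15 of the 34 genes were lower in CIA mice and 0 higher, against 2.66% lower and 2.65% higher across all genes. These were Csf1r, C1qa, C1qb, C1qc, Fcgr1, Ms4a7 and Trem2 of the resident genes, Mrc1 and Folr2 of the scavenger receptors, Ly6c2, Ccr2, F13a1 and Cd209a of the monocyte genes, and Fcgr3 and Fcer1g of the shared genes. The log2 fold change of Ly6c2 was -0.998 (SE 0.19, edgeR adjusted p = 0.0019) and that of Cd209a -1.18 (SE 0.21). Those of Fcgr1 (-0.70), Ms4a7 (-0.66), Trem2 (-0.63) and Ccr2 (-0.45) differed from the values without the term by less than 1 SE. The C1q chains and Csf1r had smaller differences than without the term. C1qb went from -0.59 to -0.38, C1qc from -0.46 to -0.31 and C1qa from -0.43 to -0.30 (edgeR adjusted p = 0.038). Csf1r went from -0.42 to -0.26 and passed near the threshold (edgeR adjusted p = 0.045). Lyz2, Cd14, Laptm5 and Timd4 took fitted values above 0 (0.10, 0.20, 0.17 and 0.14), none of which passed, and so did Plac8 (0.0016). Ctss, above 0 without the term, had the highest fitted value of the 34 with it (0.35, adjusted p = 0.072).

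With the plasma cell score as a term instead, 10 of the 34 genes were lower and 0 higher, against 2.49% and 1.31% of all genes. All 10 were also among the 15 of the smooth muscle fit: C1qb, Fcgr1, Ms4a7, Trem2, Folr2, Ly6c2, F13a1, Cd209a, Fcgr3 and Fcer1g. The score itself was lower in CIA mice (5.13 ± 0.348 against 5.76 ± 0.395). Under it Ly6c2 had a log2 fold change of -0.55 (edgeR adjusted p = 0.030), against -1.28 without the term, and Cd209a one of -0.96 (adjusted p = 0.0067), against -1.15, while C1qa (-0.23, adjusted p = 0.11), Csf1r (-0.21, adjusted p = 0.10) and Ccr2 (-0.31, adjusted p = 0.057) no longer passed. With the T cell score as the term 23 genes were lower, against 19.3% of all genes, and Aif1 (-0.074), Lyz2 (-0.066) and Spi1 (-0.093) no longer passed. With the B cell score 26 were lower, against 22.2%.

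How the markers varied together from mouse to mouse was read from their log2 CPM, compared across 60 mice after the mean of each treatment and time group was removed. There were 16 pairs of genes, tested two-sided by permutation with 100000 resamples within groups. C1qa and C1qb rose and fell together (Pearson r = 0.78, Spearman rho = 0.81), as did C1qa and Csf1r (r = 0.71, rho = 0.73), each with an adjusted permutation p of 3.2e-05, the smallest the resamples can give after adjustment. Cd163 paired with Lyve1 (r = 0.71, rho = 0.70) and with Mrc1 (r = 0.73, rho = 0.72) at the same p. C1qa and Cd163 showed little relation (r = 0.080, rho = 0.017, adjusted permutation p = 0.65). Without the 2 mice farthest from the median, r was 0.74 for C1qa with C1qb, 0.66 for C1qa with Csf1r, 0.71 for Cd163 with Lyve1 and 0.74 for Cd163 with Mrc1. Within CIA mice these were 0.74, 0.84, 0.735 and 0.71, and within naïve mice 0.82, 0.57, 0.69 and 0.76.

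Ly6c2 was set beside other monocyte genes and markers of other cells. With Ccr2 its r was 0.30 (rho = 0.26, adjusted permutation p = 0.079) and with Plac8 0.16 (rho = 0.22, adjusted p = 0.31). With Jchain, the joining chain of secreted IgA made by plasma cells, which was itself lower in CIA mice (log2 fold change -0.85, SE 0.14), r was 0.77 (rho = 0.72, adjusted permutation p = 3.2e-05), 0.78 within CIA mice, 0.78 within naïve mice and 0.71 without the 2 mice farthest from the median. The difference between these correlations was not tested. Ly6c2 with its near copy Ly6c1 gave r = 0.51 (rho = 0.49), with C1qa r = 0.33 (rho = 0.38, adjusted permutation p = 0.079 for r and 0.017 for rho) and with the T cell gene Cd3e r = -0.079 (rho = -0.15, adjusted p = 0.65). With Acta2 the r of Ly6c2 was -0.33 (rho = -0.31, adjusted p = 0.069) and that of C1qa -0.29 (rho = -0.28, adjusted p = 0.079). Lyve1 with Prox1, a gene of lymphatic endothelium, gave r = 0.21 (rho = 0.21, adjusted p = 0.21), Cd163 with Acta2 r = 0.14 (rho = 0.15, adjusted p = 0.35) and Tyrobp with Fcer1g r = 0.59 (rho = 0.57, adjusted p = 5.3e-05).

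**Figure D3:**
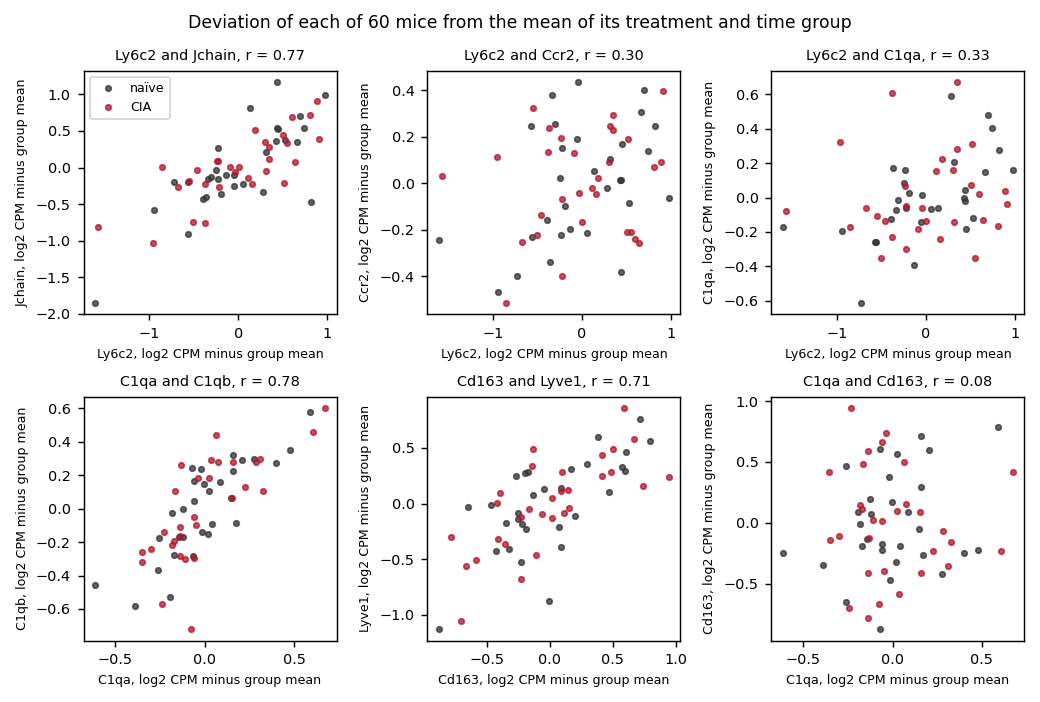
Each point is 1 of 60 mice, plotted as log2 CPM minus the mean of its treatment and time group for a pair of genes on the axes. Points follow a line for Ly6c2 with Jchain (r = 0.77), C1qa with C1qb (0.78) and Cd163 with Lyve1 (0.71), and form a cloud for C1qa with Cd163 (0.080).

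How far each gene varied with other cell types was read from scores of B cell, plasma cell, T cell and epithelial genes, a comparison chosen after the first values were seen (34 genes with 4 scores, 136 pairs, two-sided permutation test). Laptm5 followed the B cell score with r = 0.90 (rho = 0.92), 0.94 within CIA and 0.87 within naïve mice, and the T cell score with r = 0.93 (rho = 0.93). Lyz2 (r = 0.85, rho = 0.86), Spi1 (r = 0.85, rho = 0.87) and Pld4 (r = 0.81, rho = 0.82) followed the B cell score too. Without the 2 mice farthest from the median these 4 r values with the B cell score were between 0.81 and 0.91. The adjusted permutation p was 6.5e-05 for each, the smallest the resamples can give after adjustment. In all 17 of the 34 genes rose with the B cell score and 0 fell, among them 7 of 9 shared myeloid genes, against 19.5% of all genes rising and 17.9% falling at the same permutation p (0.02046 or less before adjustment, the largest that passed). With the T cell score 17 rose and 0 fell, against 12.9% and 12.1%.

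By contrast Ccr2 (r = 0.034), Cd209a (-0.11), F13a1 (-0.12), Fcgr3 (-0.079) and Ly6c2 (-0.043) had B cell correlations that did not pass. With the plasma cell score 16 of the 34 genes rose and 0 fell, against 8.19% and 9.61% of all genes, and Ly6c2 had the highest r (0.73, rho = 0.69), 0.69 within CIA and 0.77 within naïve mice, followed by C1qb (r = 0.59, rho = 0.61). With the epithelial score 0 genes rose and 9 fell, against 9.38% and 7.22% of all genes, the lowest r being that of Folr2 (-0.53, rho = -0.58). Plac8 did not pass (r = 0.15, rho = 0.15). The part of these cell types in the treatment differences was not tested beyond the fits with each score as a term.

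The balance of monocyte over resident genes was described by the mean log2 CPM of the 8 monocyte genes minus that of the 17 resident and scavenger genes. The resident score was 3.11 ± 0.212 in CIA and 3.54 ± 0.223 in naïve mice, and the monocyte score 4.29 ± 0.226 and 4.88 ± 0.255. The balance was 1.18 ± 0.189 in CIA and 1.34 ± 0.187 in naïve mice, a difference of -0.16 (SE 0.049). Without any 1 library the difference lay between -0.18 and -0.15. As a log2 ratio of summed CPM it was -0.073, and with shorter lists of 3 monocyte and 6 resident genes -0.19. Ly6c2 (log2 fold change -1.28) and Cd209a (-1.15) had the largest falls of the 34 genes and weigh on the monocyte score. The balance without these genes was not computed. By time the difference was -0.25 at ZT0, -0.15 at ZT4, -0.20 at ZT8, -0.14 at ZT12, 0.049 at ZT16 and -0.26 at ZT20. Both scores were lower in CIA mice at all 6 time points. From mouse to mouse the median r between the 8 monocyte genes was 0.15 (range -0.25 to 0.87). F13a1 had r = 0.83 with Mrc1 and 0.72 with Cd163, against 0.16 with Ccr2 and 0.30 with Ly6c2. Cd209a had r = 0.51 with Lyve1 and 0.49 with Mrc1, against 0.13 with Ccr2 and 0.11 with Ly6c2. The balance is thus one of listed genes, and which cells it reflects was not tested.

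Within single time points 5 mice were compared with 5. At ZT12 5 of the 34 genes were lower in CIA mice and 0 higher (edgeR, 2.94% of all genes lower and 4.59% in either direction), and at ZT20 1 was lower (6.22% lower, 10.5% in either direction). At ZT0, ZT4, ZT8 and ZT16 0 of 34 passed, as did 0 of all genes, while 11, 21, 22 and 14 of the 34 were lower at an unadjusted p under 0.05, against 6.36%, 6.28%, 3.79% and 5.75% of all genes. DESeq2 called 4, 6, 5 and 1 lower at these times, against 0.825%, 0.465%, 0.327% and 0.438% of all genes lower and 4.05%, 0.72%, 0.377% and 0.687% in either direction. At ZT12 it called 8 lower (6.68% of all genes) and at ZT20 2 (8.46%). The genes called by edgeR at ZT12 were C1qb, Ms4a7, Cd209a, Fcer1g and Tyrobp, and at ZT20 Folr2.

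At ZT12 Ms4a7 had 3.32 ± 0.654 CPM in CIA and 7.04 ± 1.62 in naïve mice (log2 fold change -1.08, SE 0.19, edgeR adjusted p = 0.023), with no overlap between the groups. Cd209a stood at 0.747 ± 0.433 and 2.52 ± 0.835 CPM at that time (-1.75, SE 0.38, adjusted p = 0.032). These calls rested on few mice: 0 genes passed at ZT12 without CIA replicate 3, 4 or 5, 1 without naïve replicate 4, 2 without naïve replicate 5, 3 without CIA replicate 1 or naïve replicate 1 or 2, and 8 without CIA replicate 2. At ZT20 0 passed without CIA replicate 1, 2, 3 or 5 or naïve replicate 2, 3 or 5, and 4 without naïve replicate 1, while at ZT0 2 passed without CIA replicate 3.

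**Figure D4:**
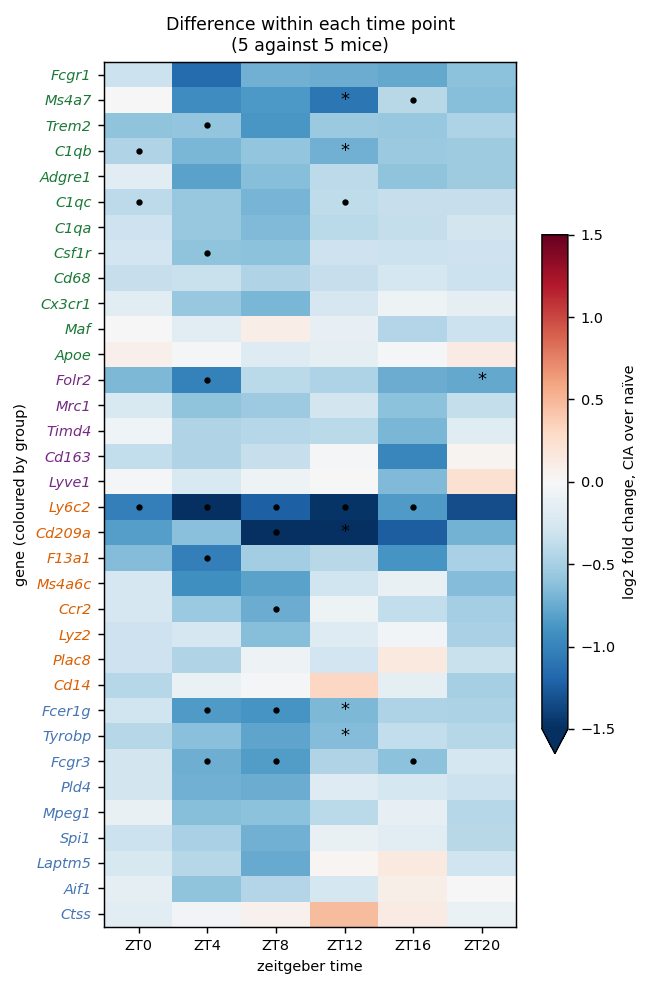
Log2 fold change of CIA over naïve mice for each gene (rows) within each time point (columns, 5 against 5 mice). Stars mark an adjusted p under 0.05 and dots mark other cells in which every CIA mouse lay below every naïve mouse. Ly6c2 is blue in all columns, and Ctss and Cd14 are red at ZT12 (0.48 and 0.31, neither of which passed).

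Ly6c2 did not pass at any single time point, yet its groups did not overlap at 5 of the 6. At ZT4 it had 5.22 ± 2.55 CPM in CIA and 19.9 ± 8.81 in naïve mice (log2 fold change -1.93, SE 0.39, edgeR adjusted p = 0.37). At ZT20 the groups overlapped, at 6.04 ± 1.08 CPM (CIA) and 15.2 ± 8.88 CPM (naïve). Over the 34 genes, every CIA mouse lay below every naïve mouse in 3 genes at ZT0 (1.14% of all genes), 7 at ZT4 (1.08%), 5 at ZT8 (0.781%), 6 at ZT12 (4.66%), 3 at ZT16 (1.17%) and 1 at ZT20 (6.87%). Fcgr3 and Fcer1g were each among them at 3 time points.

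The treatment difference itself was compared between time points with an interaction term. None of the 34 genes passed, as none of all genes did (0%), and 1 of the 34, Ms4a7, had an unadjusted p under 0.05 (4.52% of all genes). Its log2 fold change was -0.0090 (SE 0.23) at ZT0 against -1.08 (SE 0.19) at ZT12. Cd163 ranged from -0.97 (SE 0.32) at ZT16 to 0.043 (SE 0.29) at ZT20, and Lyve1 from -0.66 (SE 0.32) to 0.23 (SE 0.31) at the same times.

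**Figure D5:**
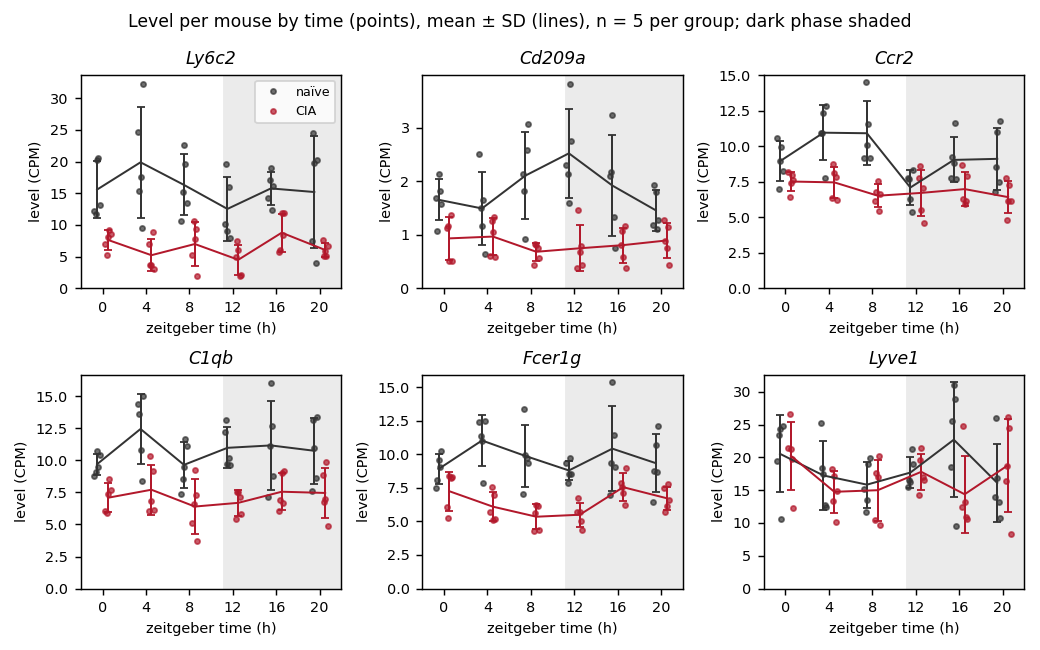
Level in CPM of 6 genes in each mouse against zeitgeber time, with mean ± SD lines (5 mice per group) and the dark phase shaded. Ly6c2 lies apart between treatments at every time but ZT20, while Lyve1 overlaps throughout.

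Few of these genes had a daily rhythm. A 24 h cosine and sine passed in 3 of the 34 genes in naïve mice, against 31.3% of all genes, and in 6 in CIA mice, against 30.6%. In naïve mice these were Pld4 (amplitude 0.37 log2 units, peak at ZT5.15, edgeR adjusted p = 0.0091), Mpeg1 (0.30, ZT7.57) and Aif1 (0.27, ZT5.38). The 3 genes thus peaked in the light phase. The count was 1 without naïve replicate 2 or 5 at ZT4, 7 without naïve replicate 3 at ZT16 and 8 without naïve replicate 5 at ZT20.

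In CIA mice the rhythmic genes were Plac8 (amplitude 0.38, peak at ZT15.0, edgeR adjusted p = 0.0015), Ctss (0.34, ZT10.2), Maf (0.32, ZT6.89), Cx3cr1 (0.32, ZT21.7), Ms4a7 (0.32, ZT22.4) and Fcer1g (0.23, ZT20.3). A difference in rhythm between treatments passed in 0 of the 34 genes (0.0222% of all genes), with 5 at an unadjusted p under 0.05 (6.51% of all genes).

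A choice among 5 models by Schwarz weight, with no p, put 18 of the 34 genes in the arrhythmic class (35.7% of all genes), 2 in the class with the same rhythm in both treatments (34.7%), 3 in loss (4.65%), 2 in gain (2.4%) and 0 in change (0.233%), and 9 (22.4%) reached the weight of 0.6 in no class. The class with the same rhythm held Adgre1 and Plac8, although Adgre1 passed the edgeR test of rhythm in neither treatment (adjusted p = 0.30 in naïve and 0.051 in CIA mice) and Plac8 not in naïve mice (adjusted p = 0.17). Loss, the model with a rhythm in naïve mice alone, held Fcgr3, Pld4 and Mpeg1, of which Fcgr3 did not pass that test in naïve mice (adjusted p = 0.064). Gain, the model with a rhythm in CIA mice alone, held Ms4a7 and Fcer1g. Pld4, Ms4a7 and Fcer1g each kept their class in 58 of the 60 runs without 1 library, Fcgr3 in 53 and Mpeg1 in 36. C1qa, C1qb, C1qc, Ly6c2 and Cd163 were arrhythmic in 60 of 60. Loss held 1 gene without naïve replicate 1, 2 or 5 at ZT4, 5 at ZT8, or 1 or 4 at ZT20, and 6 without naïve replicate 3 at ZT16 or 5 at ZT20. Gain held 1 without CIA replicate 4 at ZT0 or 5 at ZT12. The class with the same rhythm held 4 without CIA replicate 2 at ZT8 or naïve replicate 2 at ZT8 or 1 at ZT20, 5 without CIA replicate 5 at ZT16, and 1 without naïve replicate 4 at ZT0 or 1 at ZT4 or ZT8.

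Genes around the 34 were counted from 3 lists. Among 23 tested genes of recruitment and survival (chemokines, growth factors and their receptors) 13 were lower and 0 higher (median log2 fold change -0.30). Ccl5, a chemokine of T and NK cells, had a log2 fold change of -1.24 (SE 0.27) and Ccl8, a chemokine of resident macrophages, one of -0.55. Tgfbr2, through which TGF-β acts on macrophages in the gut, had one of -0.17. With the smooth muscle score as a term 2 were lower and 2 higher, and Ccl8 was among the lower (-0.68).

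Among 25 transcription factors and signalling genes 7 were lower and 0 higher (median -0.18; 1 higher without CIA replicate 1 or 3 at ZT0, 1 or 4 at ZT4 or ZT8, or 1 at ZT12, or naïve replicate 5 at ZT0, 4 or 5 at ZT8 or ZT20, or 2 at ZT16), led by Irf8 (-0.53, SE 0.077), which directs monocyte and dendritic cell development, and Irf4 (-0.69, SE 0.14), which plasma cells and dendritic cells also use. Runx1 and the kinase Lyn had log2 fold changes of -0.26 each. With the smooth muscle score as a term 0 were lower and 1 higher. Among 30 other macrophage genes 17 were lower and 1 higher (median -0.37), including the C-type lectins Clec4n (-0.63, SE 0.093) and Clec4a3 (-0.59, SE 0.10) and the scavenger receptors Msr1 (-0.46) and Stab1 (-0.38). With that term 6 were lower and 0 higher. The share lower across all genes is the 20.4% given above, or 2.66% with the term.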

How the data were processed

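The authors prepared stranded mRNA libraries of colon, read them as paired ends, used bcl2fastq 2.17.1.14 to demultiplex, Trimmomatic 0.36 to trim and STAR 2.5.3 to align to mm10 (GRCm38), and counted reads per gene with Rsubread. The deposited table holds raw counts of 27179 Entrez genes in 60 libraries. Of counts from 1 to 20, 74.0% were even, so halved counts were tried as an alternative. Symbols came from RefSeq (GRCm38.p6) for 25275 genes; 1904 had none.

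Analysis used R 4.3.3 with edgeR 4.0.16, limma 3.58.1 and DESeq2 1.42.0. Genes were kept by filterByExpr (minimum count 10, minimum total 15, 12 groups) and scaled by TMM. Treatments were compared with edgeR's quasi-likelihood F test (SE: absolute log2 fold change over the square root of F), p adjusted by Benjamini and Hochberg over 18057 genes. A score is the mean log2 CPM of a list (prior count 2). The tests were tested on simulated data. Alternatives were other scaling, tests and filters, cell type scores as terms, the replicate block, and time points and libraries left out.

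The 34 genes and all lists were chosen with earlier results of these data known. The text names all 34, 4 genes with the smallest adjusted p and at least 1 CPM from each related list, Acta2, Ly6c1 and the genes of the correlated pairs. Of the genes from the related lists, 1 is not reported here.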

Additional observations from a re-analysis of the deposited data

Results flagged for a closer look

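In each group of 5 mice, a value was singled out where its gap to the nearest other mouse took more than 0.71 of the range of the group (Dixon's limit). This held for 31 of 456 groups. For independent, normally distributed values chance alone singles out about 1 group in 20. These genes vary together and CPM need not be normally distributed, so that rate is only a rough guide. All were above the other 4 mice of their group unless said to be below.

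In CIA replicate 3 at ZT8, C1qa (44.7 CPM, the others 22.8 to 26.6), Pld4 (13.8), Laptm5 (45.96) and Spi1 (6.73) stood above the group. In naïve replicate 3 at ZT16, C1qa (69.1 CPM, the others 35 to 44), Trem2 (5.47), Folr2 (12.1) and Ctss (444.2) did. In CIA replicate 5 at ZT16, Tyrobp (12.8 CPM), Pld4 (11.8) and the monocyte score (4.68 log2 CPM) did, and in naïve replicate 5 at ZT20 Ms4a6c (16.3 CPM), Mpeg1 (54.2) and Aif1 (13.1).

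Naïve replicate 2 at ZT20 was high in Cd163 (7.76 CPM) and Folr2 (7.21), and CIA replicate 3 at ZT0 in Cd14 (131.4) and Ctss (461.0). Single values were those of Cd163 in CIA replicate 3 at ZT4 (7.37 CPM), Lyve1 in CIA replicate 2 at ZT16 (24.75), Ms4a6c in CIA replicate 4 at ZT12 (9.46) and Cd14 in CIA replicate 4 at ZT8 (192.4). In naïve mice they were Ms4a7 in replicate 1 (9.87 CPM), Apoe in replicate 2 (411.4) and F13a1 in replicate 4 (18.95) at ZT12, and Spi1 in replicate 4 at ZT16 (6.54). The monocyte score of CIA replicate 1 at ZT20 (4.61 log2 CPM) and the smooth muscle score of naïve replicate 2 at ZT8 (9.50) were high.

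Below their groups lay Fcgr1 in naïve replicate 5 at ZT12 (1.12 CPM), Ctss in CIA replicate 2 at ZT12 (300.3, the others 501.8 to 528.4) and the resident score of CIA replicate 4 at ZT16 (2.82 log2 CPM).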

How the results depend on the processing

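Of the 34 genes, 15 were lower with the smooth muscle score as a term and 10 with the plasma cell score, against 26 without. With the smooth muscle score, fitted values of Timd4 (0.14), Plac8 (0.0016), Cd14 (0.20), Lyz2 (0.10) and Laptm5 (0.17) lay above 0. So did Apoe (0.051) and Laptm5 (0.066) with the plasma cell score, and Apoe (0.073) and Laptm5 (0.12) with the T cell score. Ctss fell to -0.019 without ZT12. DESeq2 called 4 genes at ZT0, 6 at ZT4, 5 at ZT8, 8 at ZT12, 1 at ZT16 and 2 at ZT20, and 1 fit over 60 libraries called 6 at ZT4, 2 at ZT8 and 4 at ZT20. In naïve mice 5 genes were rhythmic under limma or with the smooth muscle score, and in CIA mice 2 with time as a factor. With the smooth muscle score, 2 recruitment genes were lower and 2 higher, 0 transcription factors lower and 1 higher (2 higher with DESeq2), and 6 other macrophage genes lower and 0 higher. Akaike weights put 1 gene in the arrhythmic class, 6 in loss and 1 in change, and a weight of at least 0.8 put 0 in loss, 1 in gain and 1 in same. Shares of all genes are not at hand for the 1 fit over 60 libraries, the rhythm alternatives or the other class weights. Those counts show only how the calls shift and cannot be set against all genes. The cause of these shifts was not tested.

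Same-numbered samples did not pair: the correlations of 30 pairs ran from -0.47 to 0.45 (median -0.044), with 8 over 0.1. With the replicate number as a block 26 genes were lower, against 19.7% of all genes. Under it 0 passed at ZT12 and 0 at ZT20, 5 were rhythmic in naïve mice and 0 rose with the smooth muscle score. For these other counts the share of all genes is not at hand.

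Leaving out 1 library gave 24 to 27 genes lower and 0 higher over all time points, 0 to 2 at ZT0, 0 to 8 at ZT12 and 0 to 4 at ZT20. It gave 1 to 8 rhythmic in naïve and 5 to 8 in CIA mice, 14 to 18 falling and 1 rising with the smooth muscle score, 12 to 15 recruitment genes lower, 6 to 10 transcription factors lower and 0 to 1 higher, and 17 to 20 other macrophage genes lower and 1 higher. Classes held 14 to 22 arrhythmic, 1 to 6 loss, 1 to 3 gain and 1 to 5 same, and the balance of monocyte over resident genes differed by -0.18 to -0.15. The B cell score as a term, the 3 left-out pairs of libraries and the correlations with cell type scores were chosen after seeing the data. Low levels limit Cd209a, Fcgr1 and Timd4, with 15, 22 and 9 counts in their lowest libraries.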

Other observations

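Among the 34 genes themselves, correlations of centred log2 CPM over 60 mice are given as a description, since all points share libraries. The closest of 561 pairs were Laptm5 with Spi1 (r = 0.93), C1qa with C1qc (0.92) and Lyz2 with Laptm5 (0.92), and the lowest was Ms4a7 with Ctss (-0.54). Cd14, Ctss and Plac8 varied together (r = 0.72 to 0.81). Their r with Csf1r was 0.044 to 0.096 and with Lyz2 0.48 to 0.59. The median r was 0.56 within the shared myeloid genes, 0.45 within the scavenger receptors, 0.33 within the resident genes and 0.15 within the monocyte genes.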
